A study of Brachypodium distachyon with 6 samples.

Results

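*BdMYB88-like*, *BdTSO1-like* and *BdGRAS32* are 3 transcription factor genes of the wild grass *Brachypodium distachyon* that were grouped here as division control genes. They were chosen by name, their Bd21-3 gene IDs were taken from the study's list of named genes, and all 3 were found among the 36647 genes of the count table. The study sequenced bulk polyadenylated RNA of leaf developmental zones, the base of young leaves where cells divide, elongate and differentiate, to see which genes were affected by releasing single cells from the tissue. All plants were wild type Bd21-3, an inbred line, were grown on soil and were 3 weeks old. Of each library labelled protoplasted, 10 leaf zones had been digested with Cellulase Onozuka RS and Macerozyme R10, enzymes that remove the cell walls, so that the RNA came from pooled single cells (protoplasts). Of each library labelled non-protoplasted, 5 leaf zones were used as intact tissue. Each group held 3 libraries, which the study's methods call biological replicates. Samples were grouped by their titles and library names. The submitted treatment field assigns each of the 6 samples to the opposite group, so the libraries are called labelled protoplasted and labelled non-protoplasted, and every direction below rests on the titles.

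Total counts per library were 23021800 to 24621927 in the protoplasted group and 17482438 to 24045979 in the non-protoplasted group. Protoplasted replicate 1 stood apart from its group. The chi-square statistic per degree of freedom between its counts and those of the other protoplasted libraries was 43.3 and 36.6, against 11.3 between protoplasted replicates 2 and 3. Between the non-protoplasted libraries it was 6.50 to 17.0. In edgeR's quasi-likelihood test with Benjamini-Hochberg adjustment, 18238 of the 23677 genes tested (77%) had an adjusted p under 0.05, of which 9164 were higher (38.7% of the genes tested) and 9074 lower (38.3%) with the protoplasted label. The CPM values (counts per 1000000 counts, scaled by the trimmed mean of M-values, TMM) did not overlap between the groups in 80.5% of the genes tested, with 40.4% higher and 40.1% lower.

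Plant organs take shape by divisions whose number and plane are controlled by transcription factors that act on cell cycle genes. In the stomatal lineage, a guard mother cell (GMC) divides symmetrically into a pair of guard cells and then leaves the cell cycle. In *Arabidopsis thaliana*, MYB88 is an R2R3-MYB factor that acts with a close paralogue to stop divisions after this last one, and TSO1 is a protein with a cysteine-rich CXC domain that acts in the same transition and in floral meristems. *BdGRAS32* is the orthologue of rice *DWARF AND LOW-TILLERING* (*OsGRAS-32*), which encodes a GRAS family protein known for brassinosteroid signalling, plant height and tillering.

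*BdGRAS32* was higher in the libraries labelled protoplasted, whereas neither *BdMYB88-like* nor *BdTSO1-like* passed the test. The study itself counted a gene as changed only beyond a log2 fold change of 3 in either direction. At 0.82 for *BdGRAS32*, -0.14 for *BdMYB88-like* and -0.18 for *BdTSO1-like*, the values found here were all within that limit. *BdGRAS32* was thus the 1 of 3 genes called, against 77% of all genes tested (38.7% higher and 38.3% lower), and the 1 of 3 whose CPM values did not overlap between the groups, against 80.5% of all genes tested (40.4% higher and 40.1% lower). Relative to either of the other genes, which needs no scaling between libraries, *BdGRAS32* was about 2-fold higher in the libraries labelled protoplasted, while the ratio of *BdTSO1-like* to *BdMYB88-like* overlapped between the groups. In a bulk sample, more cells that express a gene and more of its RNA per cell cannot be told apart.

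*BdGRAS32* has the ID BdiBd21-3.1G0657800 and a length of 3148 bases in the deposited table. The study made a mutant of this gene with CRISPR/Cas9, which was not part of these libraries. The forward oligo of its guide is shown as a stretch designed against this gene, with the bases that pair with its reverse oligo in capitals and the cloning overhang in lower case.
pri1457: acttGACAGCGCAGCGACTCCCATG
The gene had 1031, 970 and 947 counts in protoplasted replicates 1 to 3, against 318, 476 and 378 counts in non-protoplasted replicates 1 to 3. On the CPM scale these were 39.3, 34.3 and 35.0 CPM in the libraries labelled protoplasted, against 21.7, 22.0 and 17.9 CPM in the libraries labelled non-protoplasted. Every library labelled protoplasted was above every library labelled non-protoplasted. The means were 36.2 ± 2.71 CPM in protoplasted and 20.5 ± 2.30 CPM in non-protoplasted libraries (SD, n = 3 each). The log2 fold change was 0.82 with a standard error of 0.13 (edgeR's quasi-likelihood test, adjusted p = 0.000253), which is a 1.77-fold difference with a 95% interval of 1.45 to 2.16.

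The same libraries were separated in the deposited TPM values (transcripts per 1000000, which take gene length into account). *BdGRAS32* stood at 38.2, 31.4 and 32.0 TPM in the libraries labelled protoplasted, against 15.6, 17.3 and 14.0 TPM in those labelled non-protoplasted, with means of 33.9 ± 3.75 TPM in protoplasted and 15.7 ± 1.65 TPM in non-protoplasted libraries (SD, n = 3 each). The call did not rest on 1 library, since the log2 fold change stayed between 0.71 and 0.87 when each of the 6 libraries was left out in turn, with the adjusted p under 0.05 every time, and was 0.77 without protoplasted replicate 1, the library that stood apart. In size, however, it was not exceptional here, because 70.4% of all genes tested had a lower log2 fold change and 38.9% had a smaller one in absolute terms. The study carried marker candidates forward only where its protoplasted bulk data did not show them upregulated above a fold change limit. A large rise of *BdGRAS32* was therefore excluded by selection, and its place among all genes is not independent of these libraries.

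*BdMYB88-like* (BdiBd21-3.1G0268700, 5526 bases) had 655, 597 and 509 counts in protoplasted replicates 1 to 3, against 334, 559 and 487 counts in non-protoplasted replicates 1 to 3. These were 25.0, 21.1 and 18.8 CPM in the libraries labelled protoplasted, against 22.8, 25.8 and 23.0 CPM in the libraries labelled non-protoplasted. The groups overlapped, because protoplasted replicate 1 lay above 2 of the 3 libraries labelled non-protoplasted. The means were 21.7 ± 3.11 CPM in protoplasted and 23.9 ± 1.71 CPM in non-protoplasted libraries (SD, n = 3 each). The log2 fold change was -0.14 with a standard error of 0.14 (edgeR's quasi-likelihood test, adjusted p = 0.367), and its 95% interval of -0.45 to 0.17 covered folds of 0.731 to 1.12. Without protoplasted replicate 1 it was -0.25 and still did not pass (edgeR's quasi-likelihood test, adjusted p = 0.0755). On the TPM scale the mean of the protoplasted group was the higher one, at 11.5 ± 2.07 TPM against 10.4 ± 1.13 TPM in the non-protoplasted group (SD, n = 3 each), so that the direction of this small difference changed with the scale.

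*BdTSO1-like* (BdiBd21-3.1G0741600, 5418 bases) had 3843, 2871 and 3335 counts in protoplasted replicates 1 to 3, against 2051, 3209 and 2803 counts in non-protoplasted replicates 1 to 3. These were 147, 102 and 123 CPM in the libraries labelled protoplasted, against 140 (replicate 1), 148 and 132 CPM in the libraries labelled non-protoplasted. Protoplasted replicate 1 fell within the range of the libraries labelled non-protoplasted, whereas protoplasted replicates 2 and 3 were below it. The log2 fold change was -0.18 with a standard error of 0.15 (edgeR's quasi-likelihood test, adjusted p = 0.297), and its 95% interval of -0.52 to 0.16 covered folds of 0.699 to 1.12. The result depended on protoplasted replicate 1, because without it the log2 fold change was -0.31 and passed the test (edgeR's quasi-likelihood test, adjusted p = 0.0361). On the TPM scale the sign was again the opposite one, with means of 67.4 ± 14.4 TPM in protoplasted and 62.3 ± 4.94 TPM in non-protoplasted libraries (SD, n = 3 each).

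The spread of *BdTSO1-like* between replicates was wider in the libraries labelled protoplasted, with a coefficient of variation of 18.2% on the CPM scale, than in those labelled non-protoplasted, at 5.68%. For *BdMYB88-like* it was 14.4% in protoplasted and 7.18% in non-protoplasted libraries. *BdGRAS32* had the opposite order, with 7.49% in protoplasted and 11.2% in non-protoplasted libraries. With 3 libraries a group, these differences in spread were not tested. Counting error alone, taken from the library with the fewest counts, was at most 5.61% for any of the 3 genes in any group, below the spread between replicates of the same gene and group. In all 3 genes, protoplasted replicate 1 had the highest CPM of its group and non-protoplasted replicate 2 the highest CPM of its group.

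**Figure D1:**
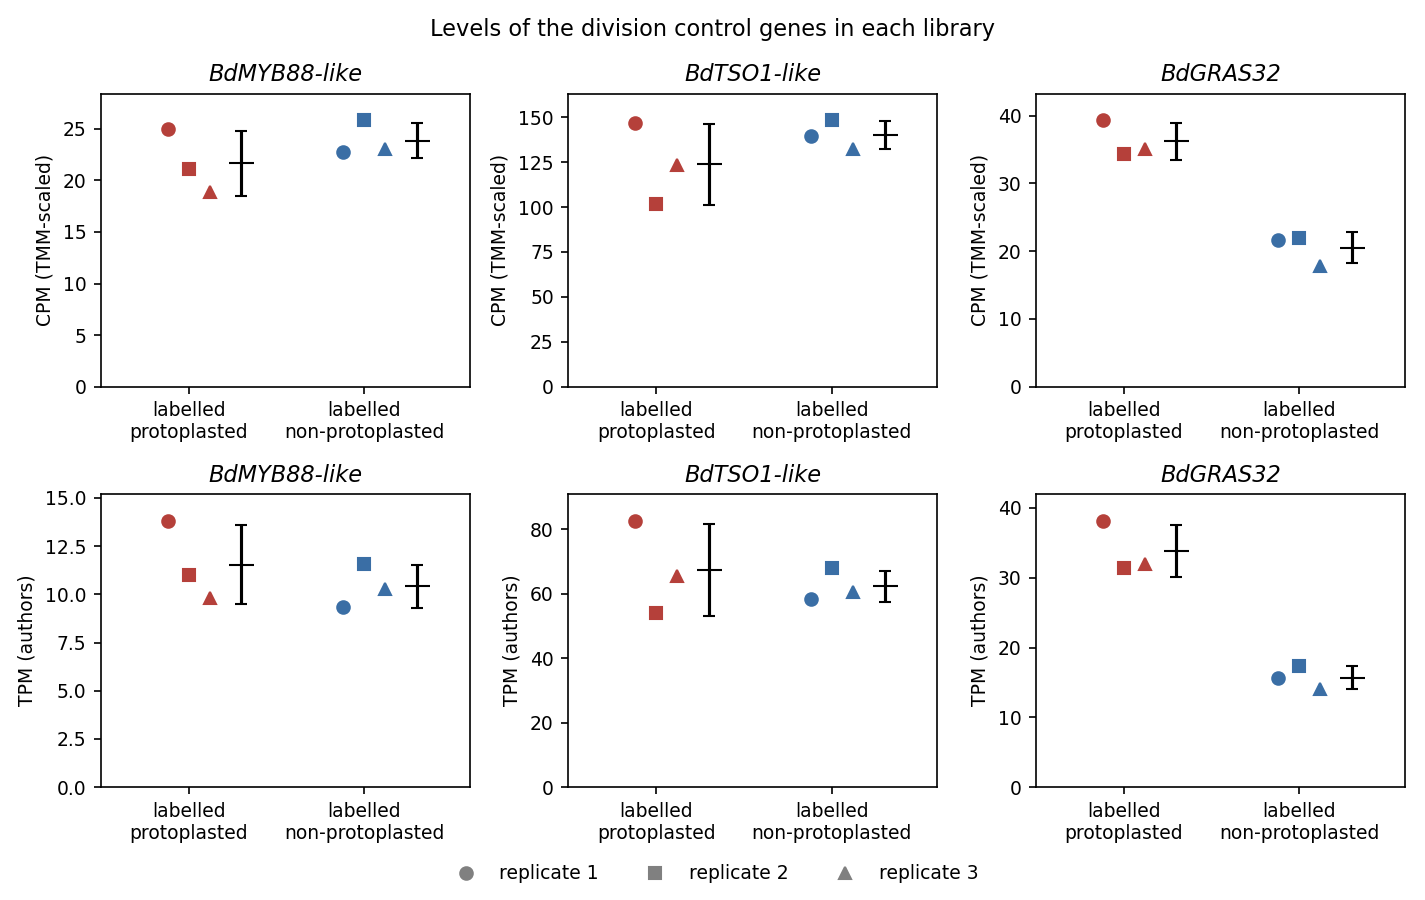
Level of each division control gene in every library, as TMM-scaled CPM in the upper panels and as the authors' TPM in the lower panels, with libraries labelled protoplasted in red on the left and libraries labelled non-protoplasted in blue on the right. Symbols mark replicates 1 to 3, and the black bars give the mean ± SD (n = 3). *BdGRAS32* does not overlap between the groups on either scale, whereas *BdMYB88-like* and *BdTSO1-like* overlap on both, and their means are lower in the protoplasted group as CPM and higher as TPM.

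Because the sign of *BdMYB88-like* and *BdTSO1-like* changed between scales, the 3 genes were compared under several ways of scaling the libraries. The TMM factors were 1.138 to 1.148 in the libraries labelled protoplasted and 0.840 to 0.900 in those labelled non-protoplasted, so that the choice of scaling mattered. With library size alone the median of all genes was 0.42 on the log2 scale, a shift of 0.38 against the 0.04 under TMM, and 61.2% of the called genes were higher, against 50.2% under TMM. Under library size alone the log2 fold changes were 0.24 for *BdMYB88-like*, 0.20 for *BdTSO1-like* and 1.20 for *BdGRAS32*, and only that of *BdGRAS32* passed the test. Upper quartile scaling gave 0.16, 0.13 and 1.13 in the same order. A change of scaling shifts all genes by nearly the same amount, so values set against the median of all genes could hardly move. *BdMYB88-like* lay 0.18 below that median, *BdTSO1-like* 0.22 below it and *BdGRAS32* 0.78 above it under TMM, under upper quartile scaling and under library size alone.

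**Figure D2:**
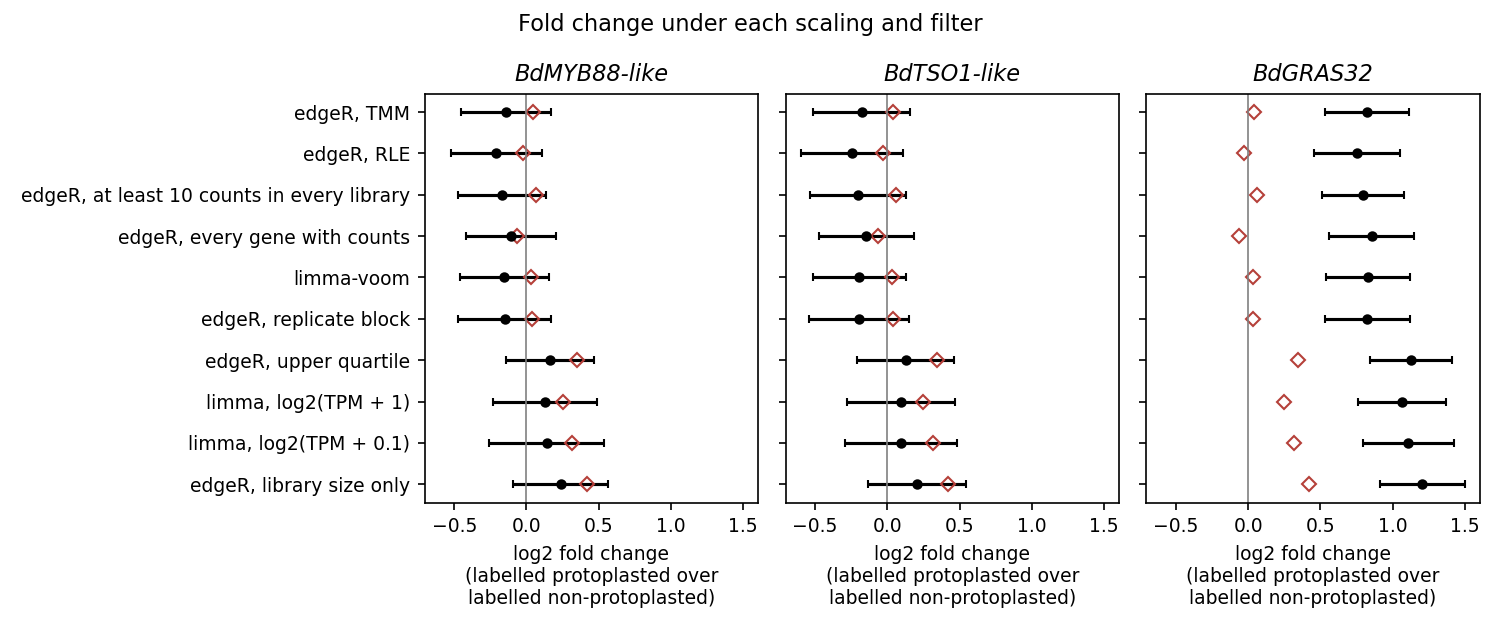
Log2 fold change (libraries labelled protoplasted over libraries labelled non-protoplasted) of each gene under 10 combinations of tool, scaling and filter, with its 95% interval in black and the median of all genes under the same setting as an open red diamond. *BdGRAS32* lies above 0 and above the median in every row, and *BdMYB88-like* and *BdTSO1-like* lie below the median in every row while their sign changes to positive under the last 4 settings.

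The genes were next compared with each other within each library, where the scaling of a library cancels. The TPM of *BdGRAS32* was 2.76, 2.85 and 3.27 times that of *BdMYB88-like* in protoplasted replicates 1 to 3, and 1.67, 1.49 and 1.36 times in non-protoplasted replicates 1 to 3. The lowest ratio of the protoplasted group was well above the highest ratio of the non-protoplasted group. The means were 2.96 ± 0.268 in protoplasted and 1.51 ± 0.155 in non-protoplasted libraries (SD, n = 3 each), a change of 0.97 on the log2 scale or 1.96-fold (exact permutation test, two-sided, p = 0.1, adjusted p = 0.15).

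The ratio of *BdGRAS32* to *BdTSO1-like* was 0.462, 0.581 and 0.489 in protoplasted replicates 1 to 3, against 0.267, 0.255 and 0.232 in non-protoplasted replicates 1 to 3. Here too the groups did not overlap. The change was 1.02 on the log2 scale or 2.02-fold (exact permutation test, two-sided, p = 0.1, adjusted p = 0.15). The ratio of *BdTSO1-like* to *BdMYB88-like*, the 2 genes whose *Arabidopsis* counterparts act in the GMC to guard cell transition, was 5.98, 4.90 and 6.68 in protoplasted replicates 1 to 3, against 6.26, 5.86 and 5.87 in non-protoplasted replicates 1 to 3. These groups overlapped, and the change of -0.04 on the log2 scale (exact permutation test, two-sided, p = 0.9, adjusted p = 0.9) was small beside the differences between single libraries of opposite groups, which ran from -0.35 to 0.19. Without protoplasted replicate 1 the log2 changes were 1.02 for *BdGRAS32* to *BdMYB88-like*, 1.09 for *BdGRAS32* to *BdTSO1-like* and -0.07 for *BdTSO1-like* to *BdMYB88-like*, and the sign of the last one turned, to 0.08, without protoplasted replicate 2. The 3 pairs were adjusted together, and 3 libraries against 3 cannot give an exact p below 0.1, so that none of these ratios could pass 0.05.

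**Figure D3:**
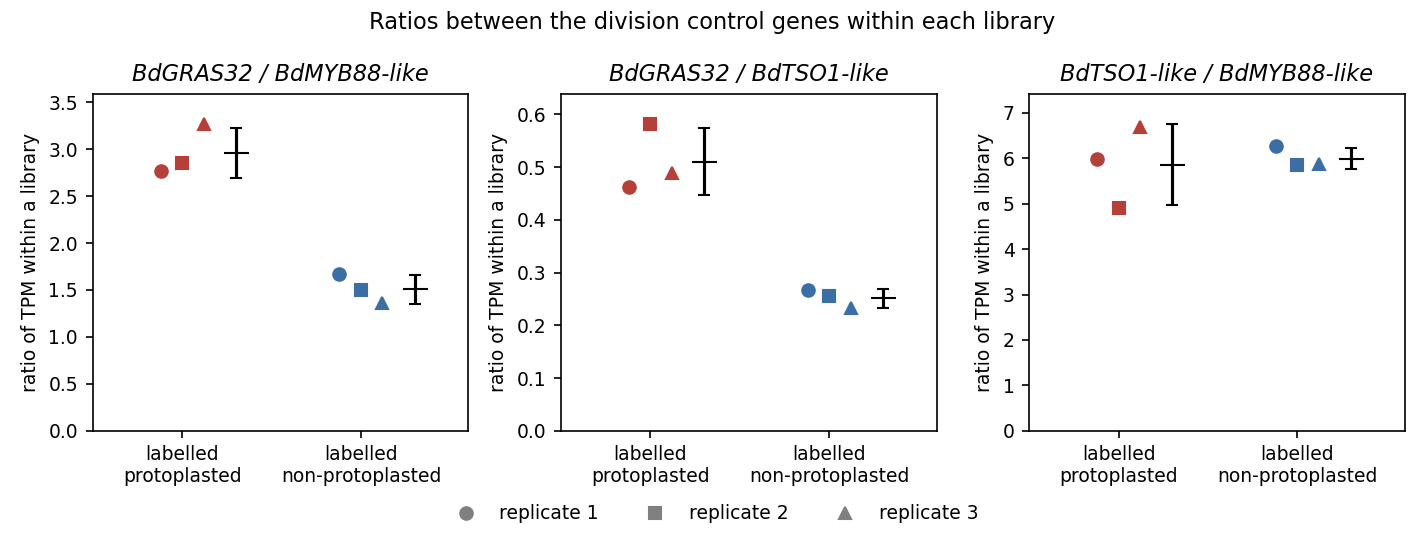
Ratio of the authors' TPM of 2 division control genes within each library, with libraries labelled protoplasted in red on the left, libraries labelled non-protoplasted in blue on the right, replicates as symbols and the mean ± SD (n = 3) as black bars. Both ratios with *BdGRAS32* on top are higher in every library labelled protoplasted, with means of 2.96 in protoplasted against 1.51 in non-protoplasted libraries and of 0.511 in protoplasted against 0.251 in non-protoplasted libraries, and the ratio of *BdTSO1-like* to *BdMYB88-like* overlaps between the groups.

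On the TPM scale, which allows levels of genes of different length to be compared, the order was *BdTSO1-like*, then *BdGRAS32*, then *BdMYB88-like* in both groups. In both groups each gene's lowest library lay above the highest library of the next gene in this order. In the libraries labelled non-protoplasted, the place of *BdGRAS32* above *BdMYB88-like* came from the correction for length. Without it, *BdMYB88-like* was the higher one there, with a mean of 23.9 CPM against 20.5 CPM. *BdTSO1-like* was among the more abundant transcripts, above 90.3% of the genes tested in the libraries labelled protoplasted and above 88.5% in those labelled non-protoplasted. *BdMYB88-like* was near the middle, above 56.5% and 55.3% of the genes tested in protoplasted and non-protoplasted libraries. *BdGRAS32* stood above 81.4% of the genes tested in the libraries labelled protoplasted and above 64.8% in those labelled non-protoplasted. Whether the lengths behind the TPM include introns is not stated, and the deposited length of each of the 3 genes is more than that of the median gene, 2237 bases.

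The study listed 316 transcription factors that were enriched in G2/M-phase cells of its single-cell atlas, and all 3 division control genes belong to that list. Of the 313 that were tested here, 156 were higher in the libraries labelled protoplasted (49.8%, against 38.7% of all genes), 85 were lower (27.2%, against 38.3%) and 72 were not called. Their median log2 fold change was 0.41, against 0.04 for all genes. Ranked from the highest log2 fold change, *BdGRAS32* was number 112 of 313, *BdMYB88-like* number 207 and *BdTSO1-like* number 212. *BdGRAS32* was therefore 1 of the 156 genes of the list that were higher, and the other two were among the 72 that were not called. The highest fold change among the called genes of the list whose groups did not overlap belonged to BdiBd21-3.1G1047200, with 1958, 1670 and 3084 counts in libraries labelled protoplasted against 16, 17 and 17 counts in libraries labelled non-protoplasted. The lowest belonged to BdiBd21-3.2G0730700, with 0 counts in all 3 libraries labelled protoplasted against 500, 838 and 614 counts in those labelled non-protoplasted.

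The study also inferred regulons, sets of a transcription factor and its putative targets, for dividing GMCs, and *BdMYB88-like* and *BdTSO1-like* are among its 79 regulon factors, whereas *BdGRAS32* is not. All 79 were tested, and in contrast to the G2/M-phase list most were lower in the libraries labelled protoplasted, with 52 lower (65.8%, against 38.3% of all genes), 12 higher (15.2%, against 38.7%) and 15 not called. Their median log2 fold change was -1.82. With library size alone 20 of them were called higher, and with upper quartile scaling 19. At -0.14 and -0.18, *BdMYB88-like* and *BdTSO1-like* were number 22 and number 23 of 79 from the highest, in the upper part of a list that lay mostly below them. The highest was *BdMUTE*, a bHLH factor that orients the division of GMCs, with 96, 43 and 65 counts in libraries labelled protoplasted against 2, 5 and 3 counts in libraries labelled non-protoplasted. The lowest was again BdiBd21-3.2G0730700, which both lists hold, as they do 29 genes in all. Both lists were drawn from single-cell libraries of protoplasts and not from these 6 libraries, and they are described here by their counts only.

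**Figure D4:**
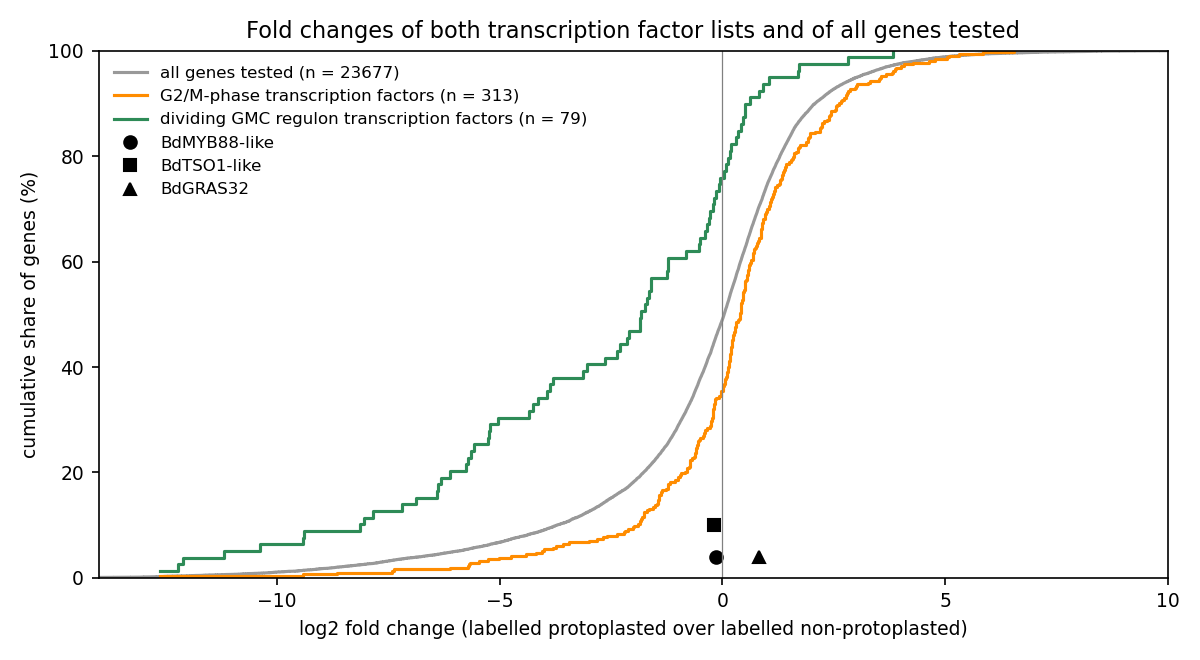
Cumulative share of genes (%) by log2 fold change (libraries labelled protoplasted over libraries labelled non-protoplasted, TMM-scaled) for all 23677 genes tested in grey, 313 G2/M-phase transcription factors in orange and 79 dividing GMC regulon factors in green, with the 3 division control genes as black symbols whose height has no meaning. The orange curve has its median at 0.41 and the green one at -1.82, and *BdMYB88-like* and *BdTSO1-like* lie just below 0, a sign that turns positive under library size or upper quartile scaling, with *BdGRAS32* at 0.82.

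Among 7 stomatal lineage factors of the study's named list, 6 were higher in the libraries labelled protoplasted, against 38.7% of all genes tested. Of the named list itself, 50 of the 69 genes tested were higher (72.5%) and 9 were lower (13.0%), so that the counts of its smaller groups stand beside a list that was mostly higher. *BdFAMA*, the bHLH factor of guard cell differentiation, had 221, 198 and 181 counts in libraries labelled protoplasted against 73, 68 and 80 counts in those labelled non-protoplasted, a log2 fold change of 0.91 ± 0.21 (SE, edgeR's quasi-likelihood test, adjusted p = 0.00329) that is close in size to that of *BdGRAS32*. *BdSPCH1*, which acts in the asymmetric entry division of the lineage, had 53, 45 and 51 counts in libraries labelled protoplasted against 0, 0 and 1 counts in those labelled non-protoplasted. *BdICE1*, a bHLH partner of these factors, had a log2 fold change of 2.23, and its paralogue *BdSCRM2* had -0.30 and did not pass the test (edgeR's quasi-likelihood test, adjusted p = 0.0648). The summed TPM of the 7 factors was 154 to 209 in libraries labelled protoplasted and 50.1 to 59.0 in those labelled non-protoplasted. Most of this sum came from *BdICE1* and *BdSCRM2*. *BdICE1* had a mean of 122 TPM in the protoplasted group and 21.2 TPM in the non-protoplasted group, and *BdSCRM2* had 27.0 TPM and 27.2 TPM.

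*BdSCRM2* was also the gene of the study's named list whose pattern over the 6 libraries was most like that of *BdMYB88-like* and of *BdTSO1-like*. Likeness was measured as the Euclidean distance between centred log2(CPM + 0.5) profiles over 68 other genes. The distance includes the difference between the groups, so near genes tend to have similar fold changes by selection. For *BdMYB88-like* the nearest were *BdSCRM2* at a distance of 0.233, *BdTSO1-like* at 0.331 and *BdPHB-like* at 0.369. For *BdTSO1-like* the same genes came in the same order, with *BdSCRM2* at 0.292, *BdMYB88-like* at 0.331 and *BdPHB-like* at 0.363. *BdMYB88-like* and *BdTSO1-like* were thus second nearest to each other. *BdGRAS32* had other neighbours, with *BdYDA2* at 0.314, *BdLHCA6* at 0.347 and *BdWOX4* at 0.368. Of these, *BdYDA2*, a homologue of the kinase gene *YODA*, had 448, 502 and 478 counts in libraries labelled protoplasted against 155, 206 and 210 counts in those labelled non-protoplasted, and its log2 fold change of 0.81 was close to the 0.82 of *BdGRAS32*. *BdLHCA6*, a light-harvesting gene of the mesophyll, had 0.93. *BdWOX4* had a larger log2 fold change of 1.55 with a standard error of 0.45, but at most 14 counts in any library. At such low counts the offset of 0.5 shrinks the difference in its profile.

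The tissue markers come from the same named list, with its 72.5% of genes higher, against 38.7% of all genes tested. The mesophyll markers summed to 127 to 145 TPM in libraries labelled protoplasted and 49.0 to 53.9 TPM in those labelled non-protoplasted, with 2 of 2 higher. The epidermis markers summed to 329 to 501 TPM in libraries labelled protoplasted and 39.6 to 52.2 TPM in those labelled non-protoplasted, with 2 of 3 higher. Most of this sum was *BdPDF1*, with a mean of 364 TPM in libraries labelled protoplasted against 27.0 TPM in those labelled non-protoplasted, whereas *BdHDG2-like* did not pass the test, with 18.0 TPM in libraries labelled protoplasted and 11.5 TPM in those labelled non-protoplasted. Of the 6 vasculature markers 4 were higher and 1, *BdVND-like2*, was lower (against 38.3% of all genes tested), and their sums were 356 to 382 TPM in libraries labelled protoplasted and 98.0 to 107 TPM in those labelled non-protoplasted, mostly from *BdXCP1-like*, which had a mean of 314 TPM in the protoplasted group and 86.9 TPM in the non-protoplasted group. Mesophyll, epidermis and vasculature markers were thus detected in both groups. Among the 4 shoot apex markers, which would mark meristem in the samples, *BdKN1* and *BdKNAT1-like* had 0 counts in all 6 libraries and the sum did not exceed 1.64 TPM in libraries labelled protoplasted and 0.929 TPM in those labelled non-protoplasted. The 3 division control genes together summed to 96.5 to 135 TPM in libraries labelled protoplasted and 83.4 to 96.8 TPM in those labelled non-protoplasted. The part of tissue composition in the difference of *BdGRAS32* was not tested.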

How the data were processed

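Bulk RNA sequencing libraries of leaf developmental zones, 3 per group, were analysed as deposited. Per the labels and methods, the authors used FastQC for quality control, Bowtie2 for mapping to the genome of Bd21-3 and summarizeOverlaps for counting. The single-cell atlas behind both transcription factor lists used a later version of this genome, and gene IDs were matched between the versions as given. The authors deposited unnormalized counts per gene, a signal in reads per kilobase of gene length and TPM values scaled to a sum of 1000000 per library. The authors' mean TPM of each group was not used, and 0 columns of single libraries were left out. Bowtie2 does not split reads across introns. The library kit keeps strand, but whether counting used it, and how reads on overlapping or similar genes were assigned, is not given in the sources used here, so that reads shared with paralogues or overlapping genes could be misplaced.

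Differential expression was tested on the counts with edgeR 4.0.16 in R 4.3.3 (filterByExpr with a minimum count of 10, TMM, glmQLFit and glmQLFTest, Benjamini-Hochberg adjustment over 23677 genes, threshold 0.05, prior count 0.125). The standard error of a log2 fold change was approximated by dividing its size by the square root of F. At 3 counts a gene stood at 0.106 to 0.204 CPM, and counting error covers counting only. Ratios of TPM were compared with exact permutation tests over libraries (scipy 1.17.1). Alternatives were DESeq2 1.42.0, limma 3.58.1 (voom, and trend on log2(TPM + 1) and log2(TPM + 0.1)), other scalings, filters and prior count, a replicate block, each library left out, and groups by the treatment entry. On simulated counts for 23677 genes with 200 changed, edgeR recovered 86.4% of the genes changed 2-fold and called 14 unchanged genes. The simulation gave every gene the same spread beyond counting error and changed few genes, whereas 77% were called in the data. Its rates therefore test the code and do not carry over to these libraries.

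Named genes were the 3 genes, the stomatal lineage factors, the tissue markers, the 3 nearest patterns of each gene and the highest and lowest gene of each list. The members and lists were chosen with earlier results of these data known. IDs without a name in the study's list are given as IDs. Of the 3 gene IDs, 0 matched the RefSeq gene table of Brachypodium_distachyon_v3.0, and no genome, coordinates, promoter or protein sequence was used here. The guide oligo was copied from the study's resource table.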

Additional observations from a re-analysis of the deposited data

How the results depend on the processing

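Of 186 alternative values of 12 results, 163 kept their direction and their side of the threshold, or for counts stayed within 1.5 times. *BdGRAS32* passed the test under every alternative, with a sign that changed only when the groups were taken from the treatment entry. The sign of the smaller differences depended on scaling. *BdMYB88-like* and *BdTSO1-like* had log2 fold changes of 0.16 and 0.13 with upper quartile scaling, 0.24 and 0.20 with library size only, 0.13 and 0.094 on log2(TPM + 1), and 0.14 and 0.095 on log2(TPM + 0.1), none of them past the threshold. These settings moved the median of all genes up by 0.30, 0.38, 0.21 and 0.27, and the share of higher among called genes from 50.2% to 59.4%, 61.2%, 58.6% and 58.6%. The dividing GMC regulon factors called higher numbered 12 under TMM, and 19 with upper quartile scaling, 20 with library size only and 19 on log2(TPM + 1).

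With groups by the treatment entry, all signs turned by construction, to 0.14 for *BdMYB88-like*, 0.18 for *BdTSO1-like* and -0.82 for *BdGRAS32*, and to -0.97, -1.02 and 0.045 for the ratios of *BdGRAS32* to *BdMYB88-like*, *BdGRAS32* to *BdTSO1-like* and *BdTSO1-like* to *BdMYB88-like*. The counts became 85 higher and 156 lower for the G2/M-phase list and 52 higher and 12 lower for the dividing GMC list.

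With each library left out in turn, the log2 fold changes ran from 0.71 to 0.87 for *BdGRAS32*, from -0.25 to -0.04 for *BdMYB88-like* and from -0.31 to -0.040 for *BdTSO1-like*, where only the fit without protoplasted replicate 1 (-0.31, edgeR's quasi-likelihood test, adjusted p = 0.0361) passed the threshold. The log2 changes of the ratios ran from 0.90 to 1.05 for *BdGRAS32* to *BdMYB88-like*, from 0.92 to 1.09 for *BdGRAS32* to *BdTSO1-like* and from -0.15 to 0.077 for *BdTSO1-like* to *BdMYB88-like*, where the value without protoplasted replicate 2 was 0.077. The counts ran from 136 to 164 higher and 81 to 95 lower for the G2/M-phase list, and from 9 to 14 higher and 51 to 56 lower for the dividing GMC list. Over all genes they ran from 8305 to 9702 higher and from 8581 to 9690 lower.

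The labels number the replicates 1 to 3 in both groups, but the sources state no pairing, and deviations from the group means correlated at 0.141, 0.0495 and 0.103 between libraries of the same number. In both groups replicates 1 and 3 correlated best with their own number, and replicate 2 did not in the protoplasted group. With the replicate number as a block, the log2 fold changes were -0.15 for *BdMYB88-like*, -0.19 for *BdTSO1-like* and 0.82 for *BdGRAS32*, 9140 genes were higher and 9098 lower, and the calls of the 3 genes did not change.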
